A study of Mus musculus with 18 samples.

Results

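The collagen genes were taken as every protein-coding gene of the mouse count table whose symbol consists of Col, a number, the letter a and a further number, which gave 43 of 25279 genes. By the type of collagen they encode, 11 were fibrillar, 6 were the collagen IV genes of basement membranes and 26 were other collagens. Bulk RNA-seq had been done on total RNA of mouse embryonic stem cells (ESCs) at days 0, 3 and 6 of a protocol that directs them towards mesoderm on gelatin. The cells were Oct1 conditional knockout (cKO) or parental. Oct1 is the octamer-binding transcription factor encoded by Pou2f1. The 6 groups were cKO at day 0, parental at day 0, cKO at day 3, parental at day 3, cKO at day 6 and parental at day 6, with 3 libraries each. The cells of all 6 groups are labelled ESC. The labels used here name no strain, clone, Cre driver or deleted exon, and leave it unstated if the 3 libraries of a group were grown separately. The p-values therefore measure only the spread between these libraries.

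The 18 libraries held 13704958 to 26995420 counts. Pou2f1, the targeted gene, stood at 62.2 to 95.4 CPM (counts scaled to a common library size) over all cKO libraries, against 123 to 142 CPM over all parental libraries. Its level was therefore lower but not near 0 in cKO cells, and counts over a whole gene do not check the loss of a part of it. The names of the day 0 libraries open with a different number from those of days 3 and 6. The labels do not say what the number stands for, and it cannot be told apart from the change between day 0 and day 3, whereas each genotype comparison lies within 1 such number. Genes of chromosome 11, which holds Col1a1 and Col23a1, had median log2 differences between cKO and parental cells of -0.38, -0.40 and -0.49 at days 0, 3 and 6, against 0.02, 0.03 and -0.04 for the other genes. The summed level of 6 stem cell markers was 4550 to 4884 CPM in cKO cells and 3809 to 3890 CPM in parental cells at day 0, and 37.5 to 49.3 CPM in cKO cells and 217 to 222 CPM in parental cells at day 6. At an adjusted p under 0.05 in edgeR's test, 1 of the 6 was higher and 0 lower at day 0 (median log2 fold change 0.10). At day 6, 0 were higher and 4 lower (median -1.73). Of all genes tested, 15.1% were higher and 16.5% lower at day 0, and 19.9% and 25.7% at day 6. The second cKO library of day 6 stood apart from the other cKO libraries of that day, as described below. The genotype differences of collagen genes at day 6 are given with and without it, and their sum is given by library.

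Collagens are extracellular proteins built from alpha chains that wind into a helix. Fibrillar collagens, such as type I (Col1a1 and Col1a2), type II (Col2a1), type III (Col3a1) and type V (Col5a1, Col5a2 and Col5a3), pack into the fibrils of connective tissue and cartilage. Collagen IV forms the sheet-like network of basement membranes, and the remaining types coat fibrils, form beaded filaments and short-chain networks, anchor epithelia, or sit in the cell membrane. In the early embryo collagen IV appears with the first basement membranes, whereas fibrillar collagens are products of mesenchymal cells.

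Promoter windows of 250 bases before to 50 bases after the start site were in the RefSeq table (build GRCm38.p6) for 34 of the 43 genes, in 37 windows. The genes without an entry were Col12a1, Col14a1, Col1a1, Col22a1, Col26a1, Col2a1, Col4a3, Col5a2 and Col9a3. The octamer ATGCAAAT, the sequence Oct1 is named for, was searched on both strands. It was in the windows of Col3a1 and Col25a1, 2 of 37 windows, against 1.74% of all 32851 windows. These windows are shown because they hold the octamer. In cKO cells Col3a1 was lower at day 0, not called at day 3 and higher at day 6. Col25a1 was not called at day 0 and was lower at days 3 and 6. In Col3a1 the octamer began 148 bases before the start site on the gene's own strand, and in Col25a1 it began 167 bases before it on the opposite strand. The start site of this Col25a1 window lies inside the gene, 49344 bases downstream of the gene's start in GENCODE M21. The Col3a1 window is chr1:45311288-45311587 on the plus strand and the Col25a1 window is chr3:130180595-130180894 on the plus strand, with the octamer in capitals.
Col3a1: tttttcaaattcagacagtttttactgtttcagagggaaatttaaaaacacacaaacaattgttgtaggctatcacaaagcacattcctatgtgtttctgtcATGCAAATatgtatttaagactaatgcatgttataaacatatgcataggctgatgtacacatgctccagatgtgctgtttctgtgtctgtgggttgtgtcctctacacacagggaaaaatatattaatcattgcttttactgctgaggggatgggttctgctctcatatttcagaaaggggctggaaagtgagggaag
Col25a1: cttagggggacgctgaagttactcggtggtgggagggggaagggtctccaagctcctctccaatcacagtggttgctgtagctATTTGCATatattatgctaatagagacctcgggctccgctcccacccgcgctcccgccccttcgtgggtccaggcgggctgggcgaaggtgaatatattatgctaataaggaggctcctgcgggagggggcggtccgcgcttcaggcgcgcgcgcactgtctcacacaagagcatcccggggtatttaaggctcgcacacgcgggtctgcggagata
The windows of Col4a1 and Col4a2 are shown because these genes lie head to head on chromosome 8, with start sites 21 bases apart, and are the most abundant basement membrane pair. The Col4a1 window is chr8:11312777-11313076 on the minus strand and the Col4a2 window is chr8:11312555-11312854 on the plus strand. The 78 bases that both windows hold, each read on its own strand, are in capitals.
Col4a1: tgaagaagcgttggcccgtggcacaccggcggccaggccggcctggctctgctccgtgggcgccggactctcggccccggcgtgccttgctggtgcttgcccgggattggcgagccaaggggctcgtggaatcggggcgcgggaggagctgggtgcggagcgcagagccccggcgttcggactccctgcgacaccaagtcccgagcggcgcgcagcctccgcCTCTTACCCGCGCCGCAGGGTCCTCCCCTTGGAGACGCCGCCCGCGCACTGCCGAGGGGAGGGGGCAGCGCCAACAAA
Col4a2: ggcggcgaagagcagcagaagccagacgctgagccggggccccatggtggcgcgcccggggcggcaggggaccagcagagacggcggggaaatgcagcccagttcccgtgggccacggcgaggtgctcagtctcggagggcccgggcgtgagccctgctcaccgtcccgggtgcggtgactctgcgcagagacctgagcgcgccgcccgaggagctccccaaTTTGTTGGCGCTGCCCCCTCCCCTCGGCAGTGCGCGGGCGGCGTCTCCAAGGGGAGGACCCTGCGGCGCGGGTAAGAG
The GC box GGGCGG, searched on both strands, was in 22 of the 37 collagen windows, against 35.7% of all windows, and both collagen IV windows above held it. The CCAAT box CCAAT was in 13 collagen windows, against 37.4% of all windows, and the letters TATAAA were in 5, against 13.6% of all windows. The 5 windows with TATAAA included that of Col3a1. These matches describe letters only.

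Collagen transcripts were moderately abundant at day 0, scarce at day 3 and abundant at day 6 in both genotypes. The summed level of all 43 genes was 1144 ± 11.7 CPM in cKO cells and 1961 ± 59.6 CPM in parental cells at day 0 (SD, n = 3 each, as for all group means here). At day 3 the sums were 396.5 ± 4.11 CPM in cKO cells and 367.6 ± 7.13 CPM in parental cells. At day 6 they were 4491 ± 1127 CPM in cKO cells and 2287 ± 46.2 CPM in parental cells. The sum in cKO cells was thus 0.583 times the parental sum at day 0, 1.08 times at day 3 and 1.96 times at day 6, and libraries of the genotypes did not overlap on any day. The cKO libraries of day 6 had 3810, 5792 and 3870 CPM, against 2272, 2339 and 2251 CPM in parental libraries. The ratio of 1.96 thus rests in part on the second cKO library.

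**Figure D1:**
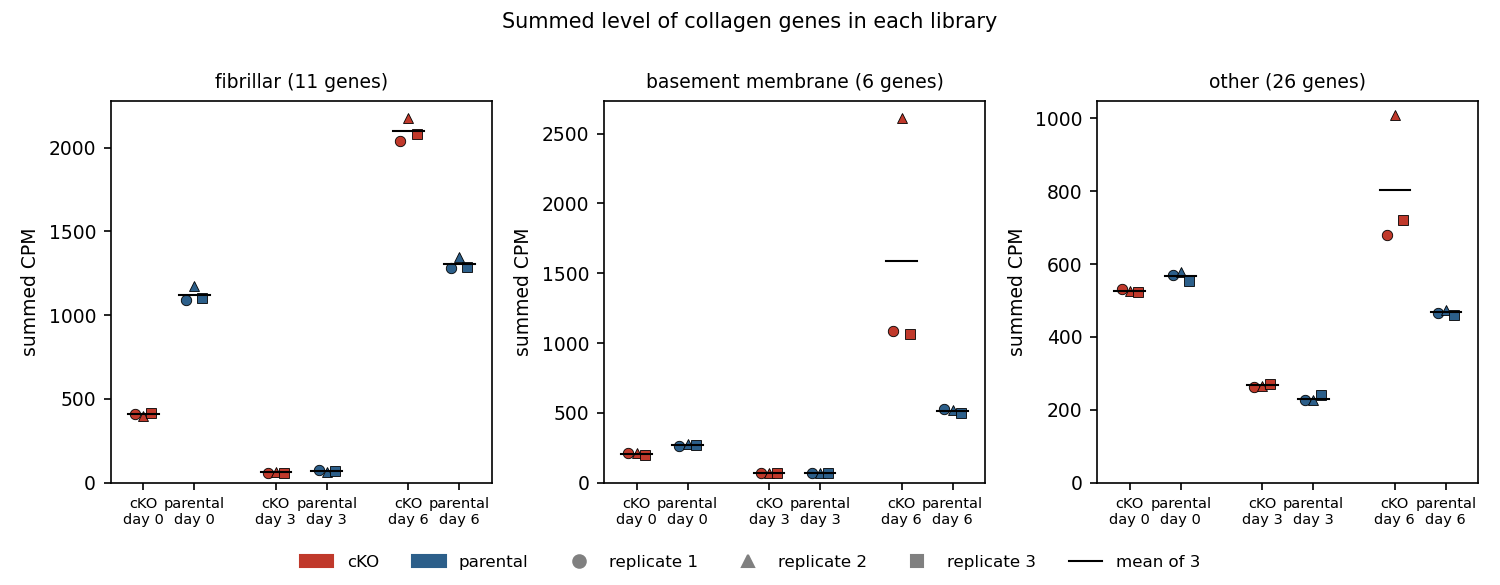
Summed CPM of the 11 fibrillar, 6 basement membrane and 26 other collagen genes (vertical axis) in each of the 18 libraries (horizontal axis, by genotype and day), with markers for replicates and a line at the mean of 3. Fibrillar sums at day 0 were 0.365 times the parental ones in cKO cells, all sums were low at day 3, and 1 cKO library reached 2608 CPM of basement membrane collagen at day 6.

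Per kilobase of exons, the order of the genes differed between days. Col18a1, whose product is a basement membrane collagen with a C-terminal fragment known as endostatin, led at day 0 in cKO cells at 52.1 ± 1.40 CPM per kb of exons, and Col1a1 was next at 23.5 ± 0.451 CPM per kb. In parental cells of day 0 Col1a1 led at 82.1 ± 3.09 CPM per kb and Col18a1 was next at 31.7 ± 0.912 CPM per kb, so the top places were exchanged between the genotypes. At day 3 Col18a1 led in both, at 34.2 ± 0.576 CPM per kb in cKO cells and 28.6 ± 1.12 CPM per kb in parental cells, and Col4a1 was next at 6.43 ± 0.122 CPM per kb in cKO cells and 5.95 ± 0.0841 CPM per kb in parental cells. At day 6 Col4a1 led in cKO cells at 110.3 ± 61.2 CPM per kb, ahead of Col4a2 at 99.1 ± 55.2 CPM per kb and Col1a1 at 67.9 ± 29.0 CPM per kb. Col4a1 was above Col4a2, and Col4a2 above Col1a1, in each of the 3 cKO libraries. Col3a1, the next by its mean at 65.9 ± 16.2 CPM per kb, had 74.9, 47.1 and 75.5 CPM per kb, and so was level with Col4a1 in the first and the third cKO libraries and below Col1a1 in the second. In parental cells of day 6 Col1a1 led at 53.8 ± 0.155 CPM per kb, ahead of Col3a1 at 41.6 ± 2.45 CPM per kb and Col4a1 at 36.6 ± 0.944 CPM per kb. With the length of the longest transcript in place of all exons, Col3a1 came first and Col1a1 next in parental cells of day 6, and the order in cKO cells was Col4a1, Col3a1, Col4a2, Col18a1 and Col1a1.

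**Figure D2:**
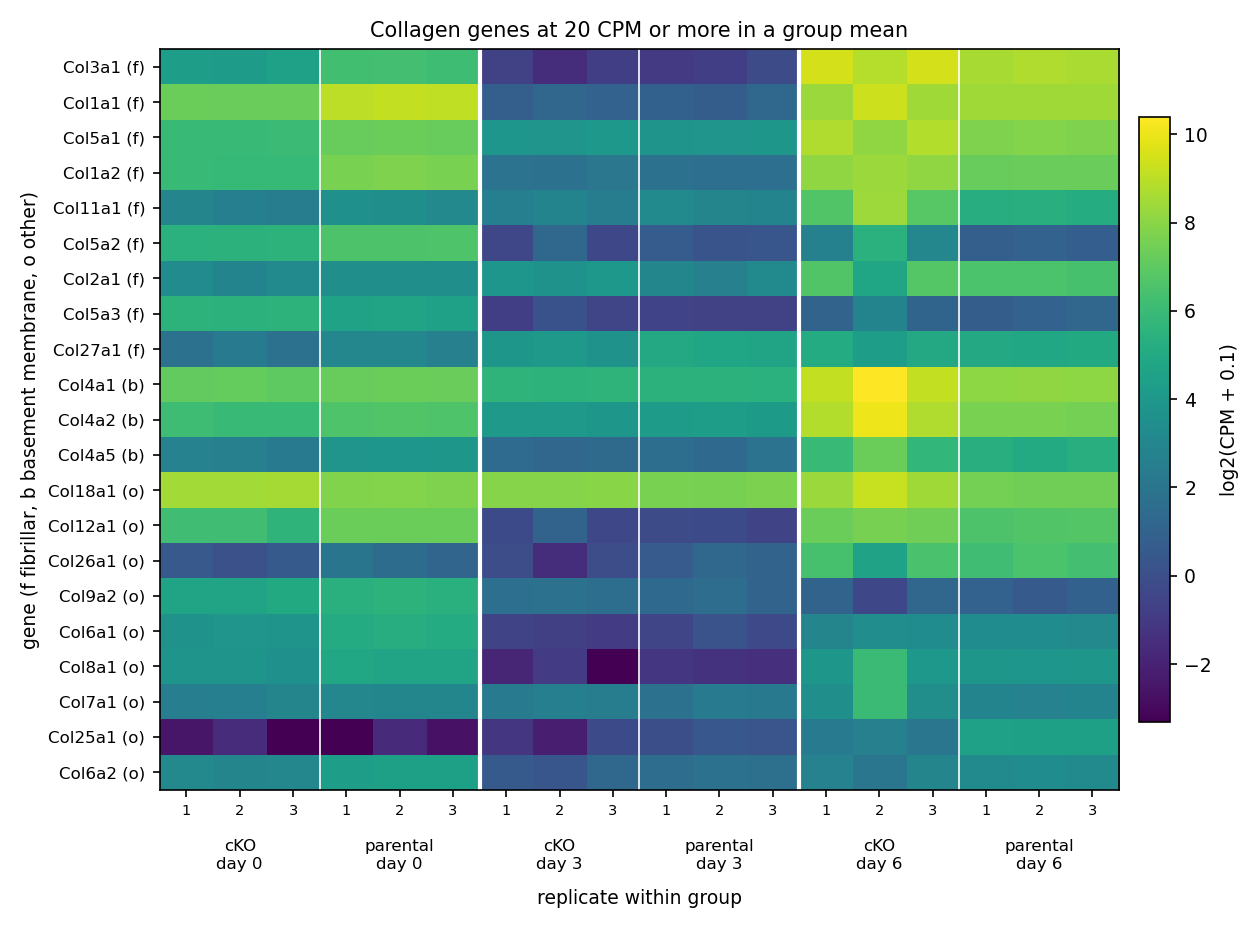
Heat map of log2(CPM + 0.1) for the 21 collagen genes with a group mean of at least 20 CPM (down the page, by class) in each of the 18 libraries (columns, cKO left of parental within each day). Most genes are low at day 3, and the second cKO library of day 6 differs in colour from the other cKO libraries of that day in several genes.

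At day 0, before differentiation, transcripts of the major fibrillar collagens were lower in cKO cells, while Col18a1 and Col5a3 were higher. Of the 43 genes, 42 passed the low-count filter, Col4a3 being the exception. Of these 42, 20 were lower and 2 higher in cKO cells at an adjusted p under 0.05, whereas 16.5% of all 20267 genes tested were lower and 15.1% higher. The median log2 fold change was -0.99 over the collagen genes and 0.00 over all genes. Among the 11 fibrillar genes 6 fell and 1 rose, among the 5 collagen IV genes tested 2 fell, and among the 26 others 12 fell and 1 rose. Libraries of the genotypes did not overlap in 35 of the 42 genes, against 52.4% of all genes tested.

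Col1a1, the major chain of type I collagen (chromosome 11, 94936224 to 94953042, build GRCm38 with GENCODE M21, as for all gene positions here), had 158, 152 and 154 CPM in cKO libraries, against 520, 561 and 536 CPM in parental libraries. Its log2 fold change was -1.80 ± 0.20 (SE here and below, adjusted p = 1.08e-05, edgeR's quasi-likelihood test). Every cKO library was below every parental one. Col1a2, the partner chain of type I (chromosome 6, 4504814 to 4541544), had 59.96, 57.5 and 59.4 CPM in cKO libraries, against 201, 218 and 201 CPM in parental libraries, a log2 fold change of -1.81 ± 0.07 (adjusted p = 4.78e-12). Both chains of type I collagen thus differed by about the same factor. Col3a1, the single chain of type III collagen (chromosome 1, 45311538 to 45349706), had 20.7, 19.4 and 22.8 CPM in cKO libraries, against 74.8, 79.1 and 69.2 CPM in parental libraries (-1.82 ± 0.16, adjusted p = 3.02e-07). Col5a1, a chain of the type V collagen that lies within type I fibrils (chromosome 2, 27886425 to 28039514), had 61.3, 62.9 and 66.3 CPM in cKO libraries, against 146, 161 and 147 CPM in parental libraries (-1.25 ± 0.12, adjusted p = 6.03e-07). In both genes the genotypes were apart in all libraries. Col27a1, a fibrillar collagen of developing cartilage, was lower as well, at 3.97 ± 0.843 CPM in cKO cells and 7.48 ± 1.02 CPM in parental cells (-0.92 ± 0.21, adjusted p = 0.00228).

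Col5a3, the third chain of type V, went the other way, with 47.4, 45.3 and 47.0 CPM in cKO libraries, against 24.2, 25.5 and 23.2 CPM in parental libraries (chromosome 9, 20770050 to 20815067). Its log2 fold change was 0.94 ± 0.30 (adjusted p = 0.0268), and its cKO libraries were all above its parental ones. The call was lost when any 1 of the 6 day 0 libraries was left out, with adjusted p-values of 0.0558 to 0.0856 and log2 fold changes of 0.91 to 0.98. Its sister chain Col5a2 (chromosome 1, 45374321 to 45503282) had 43.1, 44.4 and 47.2 CPM in cKO libraries, against 93.6, 96.2 and 97.6 CPM in parental libraries. Those ranges are far apart, yet the adjusted p of Col5a2 was 0.136 in the fit of all libraries and 2.72e-08 without the second cKO library of day 6 (-1.09 in both fits). In the same way Col8a1, a short-chain collagen (-1.05, adjusted p = 0.0939 and, without that library, 1.95e-10), Col11a1, a chain of the type XI collagen of cartilage fibrils (-0.74, 0.208 and 7.72e-06), Col26a1 (-1.24, 0.153 and 0.000674), Col2a1, the type II collagen of cartilage (-0.37, 0.553 and 0.0106), and Col4a1 (-0.19, 0.628 and 0.00158) passed without it. Col4a2 (-0.63, adjusted p = 0.0826) passed without it (4.22e-12) or without the third cKO library of day 6 (0.0429). Without the second, 28 collagen genes were lower and 2 higher in cKO cells at day 0, whereas 21.7% of all genes in that fit were lower and 20.7% higher. A fit of the day 0 libraries alone gave the same collagen counts, with 29.2% of all its genes lower and 29.0% higher.

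All 4 of the more abundant collagen IV chains had lower means in cKO cells at day 0, and Col4a5 and Col4a6 passed the test in the fit of all libraries. The most abundant pair, Col4a1 and Col4a2, had 139, 141 and 129 CPM (Col4a1) and 69.1, 62.9 and 62.3 CPM (Col4a2) in cKO libraries, against 150.4, 160 and 156 CPM (Col4a1) and 97.0, 103 and 99.9 CPM (Col4a2) in parental libraries. The pair on the X chromosome, which encodes a network of specialised basement membranes, was lower in cKO cells. Col4a5 had 6.59, 6.27 and 5.13 CPM in cKO libraries, against 14.4, 14.5 and 15.5 CPM in parental libraries (-1.31 ± 0.35, adjusted p = 0.0105). Col4a6 had 0.411 ± 0.0855 CPM in cKO cells and 1.01 ± 0.247 CPM in parental cells (-1.31 ± 0.37, adjusted p = 0.00944). Without the third cKO library of day 0 the adjusted p-values of Col4a5 and Col4a6 were 0.0507 and 0.055.

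Col18a1 (chromosome 10, 77052178 to 77166548) had 361, 360 and 377 CPM in cKO libraries, against 222, 229 and 216 CPM in parental libraries, and so was the only other collagen gene called higher at day 0 (0.72 ± 0.16, adjusted p = 0.00277). Col12a1, which coats collagen I fibrils (chromosome 9, 79598991 to 79718831), had 73.7, 72.8 and 48.1 CPM in cKO libraries, against 162, 159 and 161 CPM in parental libraries (-1.31 ± 0.17, adjusted p = 2.12e-05). Every cKO library lay below the parental ones, with the third the lowest. Of the 5 collagen VI genes, which encode chains of beaded filaments, Col6a1, Col6a2, Col6a3 and Col6a5 fell, and Col6a4 did not pass (-0.99 ± 0.47, adjusted p = 0.121). Col6a1 had 13.1, 14.3 and 13.9 CPM in cKO libraries, against 34.1, 37.4 and 34.2 CPM in parental libraries (-1.36 ± 0.14, adjusted p = 6.54e-07). Col6a2 had 8.61, 7.52 and 8.13 CPM in cKO libraries, against 20.5, 22.0 and 21.9 CPM in parental libraries (-1.41 ± 0.20, adjusted p = 2.13e-05). Neither pair of ranges overlapped. Col6a3 averaged 6.84 ± 0.928 CPM in cKO cells and 12.9 ± 0.819 CPM in parental cells (-0.92 ± 0.24, adjusted p = 0.00584). Col9a2, a chain of the cartilage collagen IX, had 26.2, 25.6 and 31.8 CPM in cKO libraries, against 42.3, 47.4 and 41.8 CPM in parental libraries (-0.65 ± 0.20, adjusted p = 0.0163, and 0.0683 to 0.0741 without the first or second cKO library or the second parental library). Further members that fell were Col9a3, Col16a1, Col22a1, Col14a1 and Col23a1, with log2 fold changes of -1.02, -1.25, -0.91, -0.95 and -1.37. The calls of Col22a1, Col14a1 and Col23a1 (adjusted p = 0.0258, 0.0405 and 0.023) were each lost without any 1 of at least 3 of the day 0 libraries, with adjusted p-values of up to 0.104, 0.133 and 0.131. The remaining called genes, Col11a2, Col28a1 and Col6a5, stayed under 5 CPM in every group.

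Summed levels of genes listed as markers of other cells also differed at day 0. The summed level of 12 fibroblast and feeder markers was 170 to 180 CPM in cKO libraries and 289 to 294 CPM in parental libraries. None of them was at 0 in either group, and 3 of the 12 were called lower. Of all genes tested, 16.5% were lower and 15.1% higher. The 6 endothelial markers summed to 138 to 149 CPM in cKO libraries and 309 to 316 CPM in parental libraries, with 2 called lower and 1 higher, a median log2 fold change of 0.03, and none at 0. Most of this sum was Pecam1, at 105 ± 2.92 CPM in cKO cells and 276 ± 3.91 CPM in parental cells, whereas Tie1 was higher in cKO cells (2.23 ± 0.34, adjusted p = 5.7e-05). The 9 markers of parietal and visceral endoderm in the table summed to 13.5 to 15.8 CPM in cKO libraries and 9.84 to 11.4 CPM in parental libraries, with 1 of 7 tested called higher and Apoa1 at 0 in all cKO libraries. The part of these cells in the collagen differences was not tested. In bulk RNA, fewer cells of a type and less RNA per cell cannot be told apart.

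**Figure D3:**
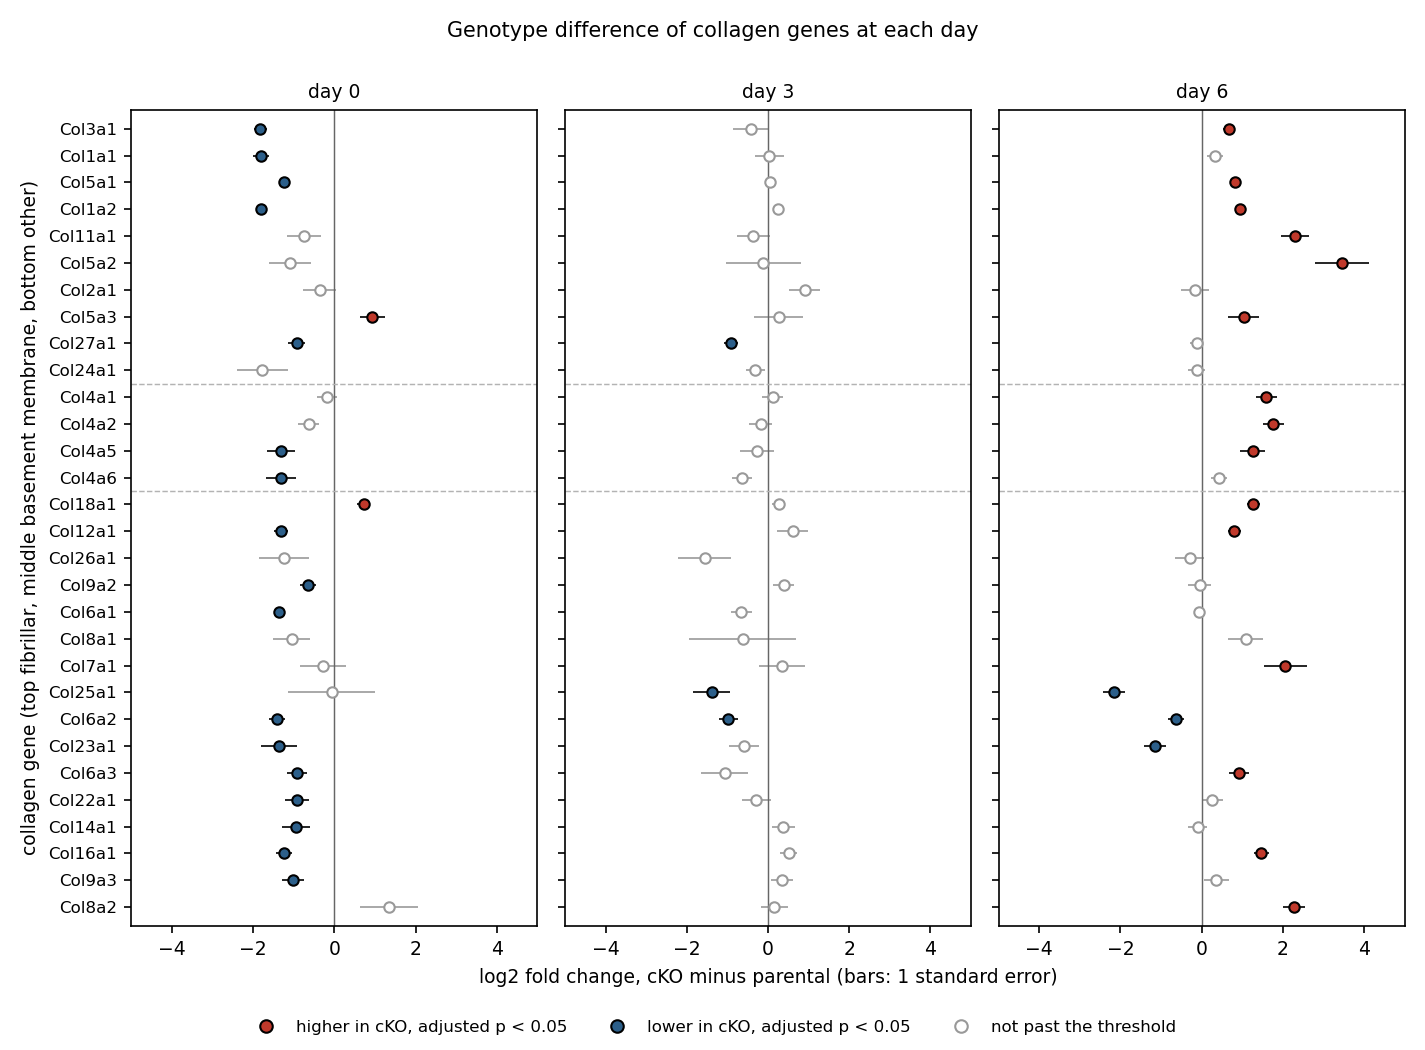
Log2 fold change of cKO over parental cells (horizontal axis, bars 1 standard error) for the 30 tested collagen genes with a group mean of at least 5 CPM (down the page, by class) at days 0, 3 and 6. Filled points are called, red higher and blue lower in cKO cells. Most called genes lie left of 0 at day 0, few are called at day 3, and most called genes lie right of 0 at day 6.

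At day 3 most collagen genes did not pass the test between genotypes. Of 42 genes 5 were lower and 0 higher in cKO cells in edgeR's test, whereas 9.39% of all genes tested were lower and 6.32% higher. At an unadjusted p under 0.05, 2 collagen genes were higher, and DESeq2 called 1. The median log2 fold change was -0.34 over the collagen genes (-0.30 with genes at 0 in a group set to their bound) and -0.01 over all genes. The type I and III chains were barely detected. Col1a1 had 1.71, 2.23 and 1.91 CPM in cKO libraries, against 1.81, 1.54 and 2.28 CPM in parental libraries, and Col3a1 had 0.526, 0.248 and 0.477 CPM in cKO libraries, against 0.409, 0.489 and 0.783 CPM in parental libraries. These ranges overlapped.

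The genes that fell at day 3 were Col27a1, Col6a2, Col25a1, Col13a1 and Col9a1. Col27a1 had 15.0, 17.2 and 12.6 CPM in cKO libraries, against 31.6, 27.7 and 25.6 CPM in parental libraries (-0.92 ± 0.17, adjusted p = 0.00101), which did not overlap. Col6a2 had 1.36, 1.18 and 2.33 CPM in cKO libraries, against 2.86, 3.46 and 3.25 CPM in parental libraries (-0.98 ± 0.24, adjusted p = 0.00719, and 0.053 without the first cKO library of day 3). Col25a1, a membrane-spanning collagen known from nerve and muscle, had 0.351, 0.124 and 0.742 CPM in cKO libraries, against 0.877, 1.24 and 1.12 CPM in parental libraries (-1.39 ± 0.45, adjusted p = 0.0398). Its ranges did not overlap, but the call was lost when any 1 of 10 libraries was left out, with adjusted p-values of 0.0518 to 0.164, and its log2 fold change was -2.08 without the third cKO library of day 3 (adjusted p = 0.0121). Both Col13a1, another membrane-spanning collagen, and Col9a1 stayed under 5 CPM in every group.

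Several of the more abundant genes did not pass at day 3. Col4a1 had 48.0, 47.1 and 48.9 CPM in cKO libraries, against 45.1, 44.3 and 43.9 CPM in parental libraries, a log2 fold change of 0.11 with a 95% interval of -0.39 to 0.61. Col5a1 had 14.9, 14.4 and 15.9 CPM in cKO libraries, against 13.74, 14.4 and 15.4 CPM in parental libraries (0.05, interval -0.21 to 0.31). The cKO range of Col4a1 lay just above the parental one, and that of Col5a1 overlapped it. Col2a1 had 14.6, 13.3 and 15.6 CPM in cKO libraries, against 7.72, 6.25 and 9.36 CPM in parental libraries, without overlap. The log2 fold change of Col2a1 was 0.90 ± 0.38, with an adjusted p of 0.143 over all libraries and 6.14e-09 without the second cKO library of day 6. Without that library 2 collagen genes, Col2a1 and Col18a1, were higher at day 3, and 9 were lower, among them Col26a1, Col4a6 and Col11a1 (-1.57, -0.65 and -0.36), whereas 13.4% of all genes in that fit were higher and 15.8% lower. The 5 mesoderm markers in the table summed to 29.9 to 76.1 CPM in cKO libraries and 272 to 355 CPM in parental libraries at day 3. Of these markers 2 were called lower and 0 higher, with a median log2 fold change of -0.10, whereas 9.39% of all genes tested were lower. The part of these markers in the collagen values was not tested.

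At day 6 transcripts of collagen IV and of most type III, V and XI chains were higher in cKO cells, while 3 less abundant collagens were lower. Of 42 collagen genes 21 were higher and 3 lower in cKO cells, whereas 19.9% of all genes tested were higher and 25.7% lower. The median log2 fold change was 0.87 over the collagen genes and -0.09 over all genes. By class, 6 of 11 fibrillar genes, 4 of 5 collagen IV genes and 11 of 26 others were higher, and the 3 lower genes were all among the others. Libraries of the genotypes did not overlap in 20 of the 42 genes, a share near the 51.5% of all genes tested. Leaving out the second cKO library of day 6 gave 24 genes higher and 3 lower, with 4170 of all 20814 genes in that fit higher and 5292 lower. In a fit of the day 6 libraries alone 14 were higher and 2 lower, with 15.9% of all its genes higher and 15.9% lower.

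Among fibrillar genes, Col1a2 had 283, 326 and 279 CPM in cKO libraries, against 148, 155 and 156 CPM in parental libraries (0.95 ± 0.07, adjusted p = 7.39e-09). Col3a1 had 735, 463 and 742 CPM in cKO libraries, against 391, 436 and 398 CPM in parental libraries (0.66 ± 0.14, adjusted p = 0.00112). Col5a1 had 434, 282.5 and 450 CPM in cKO libraries, against 215, 231 and 216 CPM in parental libraries (0.82 ± 0.12, adjusted p = 2.76e-05). In all 3 genes every cKO library was above every parental one, and for Col3a1 and Col5a1 the second cKO library was the lowest of its group. With that library left out the log2 fold changes were 0.88 for Col1a2, 0.85 for Col3a1 and 1.002 for Col5a1, with adjusted p-values of at most 2.72e-15. Col11a1 (chromosome 3, 114030540 to 114220718) had 104, 334 and 112.5 CPM in cKO libraries, against 37.3, 38.4 and 36.5 CPM in parental libraries (2.29 ± 0.35, adjusted p = 0.000156, and 1.53, adjusted p = 1.24e-17, without the second cKO library). Col5a2 had 6.34, 43.3 and 8.08 CPM in cKO libraries, against 1.65, 1.89 and 1.63 CPM in parental libraries (3.46 ± 0.66, adjusted p = 0.00092, and 2.04, adjusted p = 4.99e-08, without it). For both genes the other cKO libraries were also above all parental ones.

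Among the type I, III and V chains at day 6, Col1a1 alone was not called. It lies on chromosome 11, whose genes were lower as a whole, and the part of this in the Col1a1 level was not tested. Col1a1 had 328, 665 and 344 CPM in cKO libraries, against 354, 352 and 353 CPM in parental libraries, so that 2 cKO libraries lay just below the parental range and 1 far above it. Its log2 fold change was 0.34 ± 0.19 (adjusted p = 0.177), and -0.07 ± 0.06 without the second cKO library (adjusted p = 0.31), and 0.51 without the first (adjusted p = 0.0314). Col5a3 had 1.99, 7.32 and 2.03 CPM in cKO libraries, against 1.56, 1.86 and 2.19 CPM in parental libraries. It was called higher (1.03 ± 0.39, adjusted p = 0.0405), but without the second cKO library its log2 fold change was 0.13 (adjusted p = 0.645). That call was lost without any 1 of 11 of the 18 libraries. Col2a1 had 104, 27.4 and 108 CPM in cKO libraries, against 92.7, 89.9 and 85.4 CPM in parental libraries (-0.16 ± 0.34, adjusted p = 0.729). Without the second cKO library, the only one below the parental range, Col2a1 was higher in cKO cells (0.24, adjusted p = 0.0171). Neither Col27a1 nor Col24a1 passed the test, at 28.5 ± 7.70 and 5.52 ± 0.822 CPM in cKO cells and 31.1 ± 1.38 and 6.03 ± 0.259 CPM in parental cells, and neither passed with that library left out (0.08 and -0.01, adjusted p = 0.575 and 0.973).

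All 4 collagen IV genes of at least 5 CPM had higher means in cKO cells at day 6, and 3 of them passed the test. Col4a1 (chromosome 8, 11198423 to 11312826) had 559.5, 1351 and 559 CPM in cKO libraries, against 272.5, 280.0 and 266 CPM in parental libraries (1.59 ± 0.25, adjusted p = 0.000179). Col4a2 (chromosome 8, 11312805 to 11449287) had 453, 1078 and 437 CPM in cKO libraries, against 202, 196 and 183 CPM in parental libraries (1.76 ± 0.26, adjusted p = 9.61e-05). Every cKO library was above the parental ones. Leaving out the second cKO library gave log2 fold changes of 1.04 for Col4a1 and 1.20 for Col4a2 (adjusted p = 3.15e-20 and 7.48e-21). Col4a5 had 61.1, 157 and 54.2 CPM in cKO libraries, against 40.2, 33.4 and 41.0 CPM in parental libraries (1.25 ± 0.30, adjusted p = 0.00354, and 0.60, adjusted p = 1e-06, without the second cKO library). Col4a6 had 14.3 ± 4.32 CPM in cKO cells and 10.6 ± 0.890 CPM in parental cells (0.42 ± 0.19, adjusted p = 0.0778), and passed when the first or the third cKO library of day 6 was left out (0.51 and 0.57, adjusted p = 0.0498 and 0.0221), but not when the second was (0.15, adjusted p = 0.405).

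Among the other collagens, Col18a1 had 322, 607 and 350 CPM in cKO libraries, against 186, 173 and 171 CPM in parental libraries (1.27 ± 0.16, adjusted p = 1.71e-05). Col12a1 had 162, 189 and 171 CPM in cKO libraries, against 95.5, 100.2 and 105 CPM in parental libraries (0.80 ± 0.16, adjusted p = 0.00088). All cKO libraries were above the parental ones for both, and with the second cKO library left out the log2 fold changes were 0.93 and 0.74 (adjusted p = 7.1e-18 and 0.0014). Col18a1 was thus higher in cKO cells at both ends of the course, whereas Col12a1 was lower at day 0. Col7a1, the collagen of anchoring fibrils below epithelia, had 11.5, 66.1 and 10.96 CPM in cKO libraries, against 7.23, 6.73 and 7.27 CPM in parental libraries (2.06 ± 0.53, adjusted p = 0.00592, and 0.67, adjusted p = 4.6e-05, without the second cKO library). Col8a1 had 15.1, 64.6 and 16.1 CPM in cKO libraries, against 15.1, 14.6 and 15.5 CPM in parental libraries (1.08 ± 0.44, adjusted p = 0.0571). Without the second cKO library Col8a1 differed by 0.05, and without the first or the third cKO library it passed (1.42 and 1.40, adjusted p = 0.0107 and 0.014). Col16a1 and Col8a2 were also higher, at 5.84 ± 1.099 and 5.59 ± 0.864 CPM in cKO cells, against 2.11 ± 0.0815 and 1.17 ± 0.200 CPM in parental cells (1.47 ± 0.19 and 2.28 ± 0.27, adjusted p = 8.12e-06 and 3.4e-06, and 1.31 and 2.41 with the second cKO library left out, adjusted p = 2.94e-07 and 2.88e-10). Col6a3 was higher as well (0.91 ± 0.24, adjusted p = 0.00513, and 1.20, adjusted p = 4.56e-08, with that library left out), while Col6a1, at 7.54, 10.4 and 9.96 CPM in cKO libraries, against 10.1, 10.2 and 8.58 CPM in parental libraries, did not pass (-0.05 ± 0.14, adjusted p = 0.781, and -0.15, adjusted p = 0.346, with it left out).

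The 3 genes that were lower at day 6 were Col25a1, Col23a1 and Col6a2. Col25a1 (chromosome 3, 130131501 to 130599877) had 4.76, 6.31 and 4.06 CPM in cKO libraries, against 23.1, 22.5 and 22.2 CPM in parental libraries (-2.16 ± 0.28, adjusted p = 7.18e-06). The separation was the widest among the lower genes and held in the second cKO library too. Col23a1, like Col25a1 a membrane-spanning collagen, averaged 7.22 ± 2.59 CPM in cKO cells and 16.02 ± 0.553 CPM in parental cells (-1.15 ± 0.27, adjusted p = 0.0021). This gene too lies on chromosome 11, and the part of the lower level of that chromosome in its difference was not tested. Col6a2 had 6.57, 4.10 and 7.56 CPM in cKO libraries, against 9.09, 10.1 and 9.21 CPM in parental libraries (-0.64 ± 0.19, adjusted p = 0.0117), and did not pass in a fit of the day 6 libraries alone (-0.57, adjusted p = 0.0859). Col6a2 was thus lower in cKO cells at each of the 3 days. All 3 genes passed with the second cKO library left out, at -2.35 for Col25a1, -0.88 for Col23a1 and -0.43 for Col6a2 (adjusted p = 1.56e-14, 1.33e-05 and 0.0106). Col26a1, a collagen with short helical stretches, had 85.8, 23.8 and 87.6 CPM in cKO libraries, against 74.0, 90.3 and 77.8 CPM in parental libraries and did not pass (-0.30 ± 0.35, adjusted p = 0.529). Col14a1, Col22a1, Col9a2 and Col9a3 did not pass either, with log2 fold changes of -0.10, 0.26, -0.04 and 0.36. Col22a1 and Col9a3 passed without the second cKO library, at 0.59 and 0.63 (adjusted p = 0.00106 and 0.0454), while Col26a1, Col14a1 and Col9a2 did not, at 0.10, 0.09 and 0.33 (adjusted p = 0.481, 0.71 and 0.226). The signs of Col6a1 and Col9a2 were positive with factors of the DESeq2 type, at 0.01 and 0.02.

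The 12 fibroblast and feeder markers summed to 2011 to 3474 CPM in cKO libraries and 957 to 1081 CPM in parental libraries at day 6. Of the 12, 10 were called higher and none was at 0, whereas 19.9% of all genes tested were higher and 25.7% lower. Without the second cKO library 9 of the 12 were called higher, whereas 4170 of all 20814 genes in that fit were higher and 5292 lower. Most of the sum was Acta2, at 2191 ± 846 CPM in cKO cells and 838 ± 57.4 CPM in parental cells. Pdgfra and Fap did not pass (-0.53 and -0.28). The 9 parietal and visceral endoderm markers in the table summed to 110 to 115 CPM in cKO libraries and 39.4 to 42.4 CPM in parental libraries. Of 7 tested, 4 were called higher, and Hnf4a was at 0 in all cKO libraries. Most of the endoderm sum was Dab2, at 90.4 ± 7.07 CPM in cKO cells and 31.2 ± 1.60 CPM in parental cells. The 6 endothelial markers summed to 74.4 to 108 CPM in cKO libraries and 37.6 to 47.1 CPM in parental libraries, with 3 called higher, 1 lower and none at 0. The 8 cartilage markers summed to 106.5 to 199 CPM in cKO libraries and 229.5 to 233.5 CPM in parental libraries, with 1 called higher and 3 lower of 7 tested and Matn1 at 0 in all parental libraries. The 5 neural crest markers summed to 160.5 to 169 CPM in cKO libraries and 103 to 115 CPM in parental libraries. Of these markers 2 were called higher and 1 lower, with a median log2 fold change of -0.84. Most of the neural crest sum was Ets1, at 145 ± 8.78 CPM in cKO cells and 94.1 ± 6.41 CPM in parental cells. With the second cKO library left out, 6 of the endoderm markers, 5 endothelial, 2 cartilage and 2 neural crest markers were called higher, and 0 endoderm, 1 endothelial, 4 cartilage and 2 neural crest markers lower. The shares of all genes given above apply to these lists too. The cartilage and neural crest lists are too short for their counts to be set apart from those shares. The part of any of these cells in the collagen differences was not tested.

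The second cKO library of day 6 had its own collagen pattern. Of the 27 collagen genes of at least 5 CPM in cKO cells of day 6, 12 spanned more than 2-fold among the 3 libraries, with a median log2 range of 0.91. In the other groups 0 genes did so, and the median log2 ranges were 0.12 to 0.18. Against the mean of the first and the third libraries, the second held 6.00 times as much Col5a2, 5.895 times as much Col7a1, 4.145 times as much Col8a1, 3.085 times as much Col11a1, 2.73 times as much Col4a5, 2.415 times as much Col4a1, 2.42 times as much Col4a2, 1.98 times as much Col1a1 and 1.805 times as much Col18a1. In the other direction it held 0.259 times as much Col2a1, 0.275 times as much Col26a1, 0.627 times as much Col3a1 and 0.639 times as much Col5a1. Col1a2 and Col12a1 stayed close, at 1.16 and 1.13 times. The same library held 169 CPM of Lox, an enzyme that cross-links collagen, against 8.0 and 15.2 CPM in the other cKO libraries, and 1366 CPM of Sparc, a collagen-binding matrix protein, against 475 and 483 CPM. It held 13.2 CPM of Pdgfra, a receptor of mesenchymal cells, against 50.9 and 57.2 CPM, and 15.0 CPM of Thy1, against 1.62 and 1.98 CPM. The labels do not set this library apart from the other cKO libraries. Its level of Pou2f1 was 65.4 CPM, against 84.0 and 82.45 CPM in the other cKO libraries of day 6. Over the cKO libraries of all days the range was 62.2 to 95.4 CPM.

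**Figure D4:**
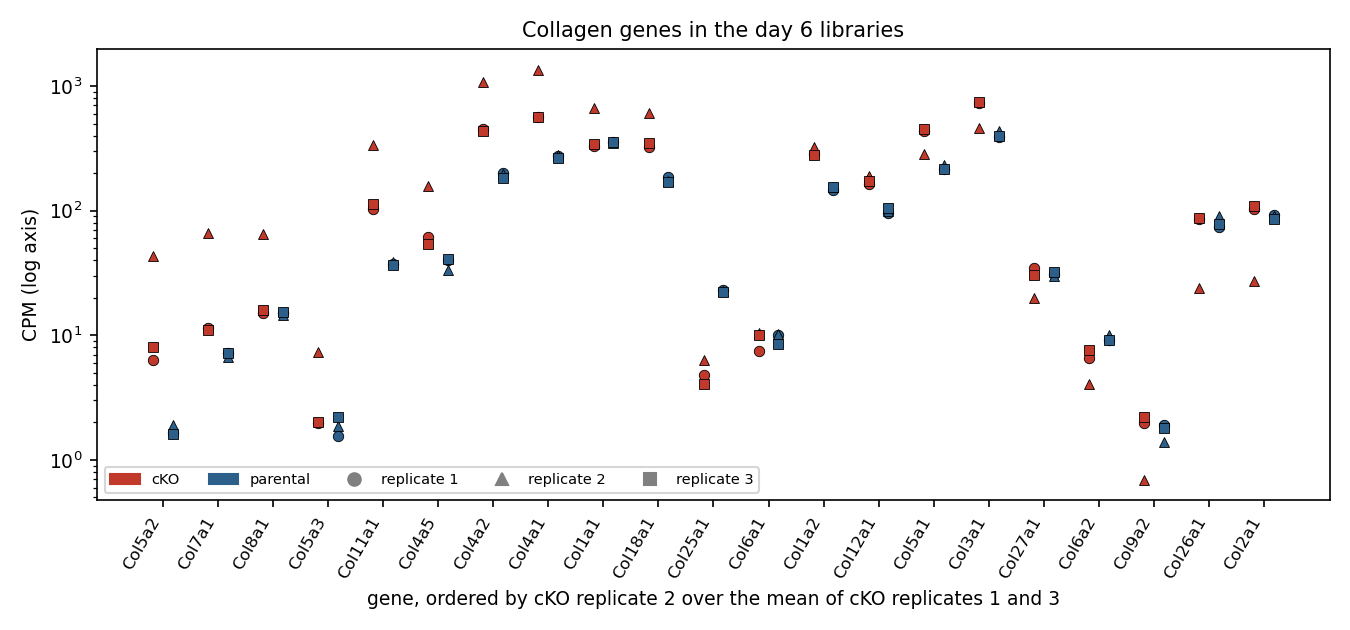
CPM (log axis) of the 21 collagen genes of at least 20 CPM in a group mean, in each day 6 library, cKO in red left of parental in blue. Genes are ordered by the ratio of the second cKO library (triangle) to the other cKO libraries, which runs from 6.00 for Col5a2 to 0.259 for Col2a1, whereas the parental libraries lie close together for every gene.

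Over time, transcripts of the major fibrillar collagens fell between day 0 and day 3 and rose between day 3 and day 6 in both genotypes, as did Col4a1, Col4a2 and Col4a5. Between day 0 and day 3, 22 genes fell and 8 rose in cKO cells, whereas 35.0% of all genes tested fell and 41.0% rose. In parental cells 24 fell and 8 rose, whereas 34.4% of all genes fell and 41.1% rose. The median log2 fold change was -1.51 in cKO cells and -1.91 in parental cells over the collagen genes, and 0.13 in both over all genes. Col3a1 fell by 5.58 ± 0.27 on the log2 scale in cKO cells and fell by 6.99 ± 0.23 in parental cells, Col1a1 fell by 6.32 ± 0.28 in cKO cells and fell by 8.16 ± 0.29 in parental cells, and Col12a1 fell by 5.89 ± 0.24 in cKO cells and fell by 7.80 ± 0.25 in parental cells. Without the second cKO library of day 3, Col12a1 fell by 6.48 in cKO cells. The largest adjusted p among these 6 changes was 3.69e-11. Col18a1 differed between days by -0.61 ± 0.16 in cKO cells (adjusted p = 0.00286) and -0.15 ± 0.16 in parental cells (adjusted p = 0.407). A few genes rose in both genotypes, among them Col27a1, by 1.92 ± 0.20 in cKO cells and 1.91 ± 0.18 in parental cells, and Col24a1, a fibrillar collagen of developing bone, by 4.46 ± 0.45 in cKO cells (3.82 without the third and 5.41 without the second cKO library of day 0) and 3.00 ± 0.32 in parental cells. Col4a6 rose (1.52 in cKO cells and 0.84 in parental cells) while its partner Col4a5 fell (-1.25 in cKO cells and -2.29 in parental cells). None of these changes between day 0 and day 3 can be told apart from the change of the number that opens the library names.

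Between day 3 and day 6, 37 genes rose and 3 fell in cKO cells, whereas 31.3% of all genes tested rose and 34.8% fell. In parental cells 27 rose and 4 fell, whereas 32.6% of all genes rose and 32.7% fell. The median log2 fold change was 3.25 in cKO cells and 1.95 in parental cells over the collagen genes, and -0.06 in cKO cells and 0.00 in parental cells over all genes. All 11 fibrillar genes and all 5 collagen IV genes tested rose in cKO cells, against 9 and 4 in parental cells, where Col5a2, Col27a1 and Col4a4 did not pass. Among the collagen genes Col3a1 had the largest rise, by 10.53 ± 0.25 on the log2 scale in cKO cells and by 9.44 ± 0.23 in parental cells. Col1a1 rose by 7.85 ± 0.29 in cKO cells and 7.55 ± 0.28 in parental cells, and Col4a2 by 5.32 ± 0.31 in cKO cells and 3.38 ± 0.28 in parental cells. The genes that fell in cKO cells were Col9a2, Col9a3 and Col6a5, and those in parental cells were Col9a3, Col6a5, Col13a1 and Col17a1. The counts in cKO cells were the same, 37 and 3, with the second cKO library of day 6 left out. Col2a1 rose by 2.46 ± 0.37 in cKO cells and 3.52 ± 0.39 in parental cells. Of the chains of collagen IX, which also belongs to cartilage, Col9a3 fell in both genotypes and Col9a2 in cKO cells, whereas Col9a1, under 5 CPM in every group, rose by 6.02 ± 0.76 in cKO cells and 1.40 ± 0.53 in parental cells.

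The change itself differed between genotypes for some genes. From day 0 to day 3 the change was more positive in cKO cells for 9 collagen genes and more negative for 1, Col13a1, whereas 9.47% of all genes tested were more positive and 9.12% more negative. The median difference was 0.54 over the collagen genes and -0.03 over all genes. For Col1a2 the difference of changes was 2.05 ± 0.12 (adjusted p = 4.74e-09), for Col12a1 1.91 ± 0.42 (adjusted p = 0.00454, and 1.32 without the second cKO library of day 3), for Col1a1 1.84 ± 0.42 (adjusted p = 0.00692), for Col16a1 1.76 ± 0.28 (adjusted p = 0.000238) and for Col5a1 1.30 ± 0.18 (adjusted p = 7.22e-05). Each of these genes was lower in cKO cells at day 0. When the second cKO library of day 6 was left out, 16 were more positive and 3 more negative, with 15.0% of all genes in that fit more positive and 16.2% more negative.

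From day 3 to day 6 the change was more positive in cKO cells for 19 collagen genes and more negative for 0, whereas 12.4% of all genes tested were more positive and 13.6% more negative. At an unadjusted p under 0.05, 0 collagen genes were more negative, and DESeq2 called 0. The median difference was 1.08 over the collagen genes and -0.07 over all genes. Over all genes 2515 were more positive and 2757 more negative, and with scaling factors computed without chromosome 11 these counts were 3013 and 2147, while the collagen counts stayed at 19 and 0. Col4a2 gained 1.94 ± 0.38 more on the log2 scale in cKO cells (adjusted p = 0.00226), Col4a1 1.48 ± 0.36 more (adjusted p = 0.00825), Col11a1 2.65 ± 0.53 more (adjusted p = 0.0028, and 1.89 without the second cKO library of day 6), Col18a1 1.01 ± 0.23 more (adjusted p = 0.00436) and Col1a2 0.71 ± 0.12 more (adjusted p = 0.000405). The difference was 0.30 ± 0.41 for Col1a1 (adjusted p = 0.632) and 1.08 ± 0.47 for Col3a1 (adjusted p = 0.102, and 0.0023 without the second cKO library of day 6). Without the first cKO library of day 3 the count of more positive collagen genes was 11, and the share of all genes in that fit is not given. With the second cKO library of day 6 left out, 22 were more positive and 1 more negative, whereas 14.9% of all genes in that fit were more positive and 16.5% more negative.

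Ratios of counts between 6 pairs of chains were compared at the 3 days, and in 8 of these 18 comparisons the genotypes did not overlap. None passed the test after adjustment. For single genes, libraries of the genotypes did not overlap in 52.4% of all genes tested at day 0 and 51.5% at day 6. The count of 8 of 18 therefore does not set these ratios apart. The share is not given for day 3 or for ratios of other genes. The ratio of Col1a1 to Col1a2 counts was 2.63, 2.64 and 2.59 in cKO libraries and 2.59, 2.58 and 2.665 in parental libraries at day 0. At day 6 it was 1.16, 2.04 and 1.23 in cKO libraries, against 2.40, 2.265 and 2.27 in parental libraries. The ratio thus overlapped between genotypes at day 0 and was below the parental range in every cKO library at day 6, with the second cKO library the closest to it. At day 3, when both genes were low, it overlapped, at 0.519 ± 0.0983 in cKO cells and 0.584 ± 0.124 in parental cells. The ratio of Col4a1 to Col4a2 counts was 2.01, 2.24 and 2.07 in cKO libraries, against 1.55, 1.545 and 1.56 in parental libraries at day 0, and 2.77, 2.825 and 3.18 in cKO libraries, against 2.47, 2.24 and 2.46 in parental libraries at day 3. At day 6 it was 1.23, 1.25 and 1.28 in cKO libraries, against 1.35, 1.43 and 1.45 in parental libraries. The cKO ratio was therefore above the parental range at days 0 and 3 and below it at day 6, and unlike the levels it was nearly the same in all 3 cKO libraries of day 6. The ratio of Col4a5 to Col4a6 counts at day 6 was 4.89, 8.19 and 4.86 in cKO libraries, against 3.45, 3.33 and 4.01 in parental libraries. It overlapped at day 0, at 14.8 ± 1.54 in cKO cells and 15.2 ± 3.79 in parental cells, and at day 3, at 2.20 ± 0.655 in cKO cells and 1.66 ± 0.429 in parental cells. The ratio of Col6a1 to Col6a2 counts also overlapped at days 0 and 3 and not at day 6, at 1.67 ± 0.759 in cKO cells and 1.02 ± 0.0900 in parental cells. Col3a1 to Col1a2 overlapped on all 3 days, and Col3a1 to Col5a2 at day 3. Each comparison that did not overlap gave a two-sided exact permutation p of 0.1, the smallest that 3 against 3 libraries allow, and 0.225 after Benjamini-Hochberg adjustment over the 18 ratio comparisons. Exons of Col4a1 and Col4a2 overlap by 22 bases on opposite strands, and whether strand was used in counting is unstated.

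**Figure D5:**
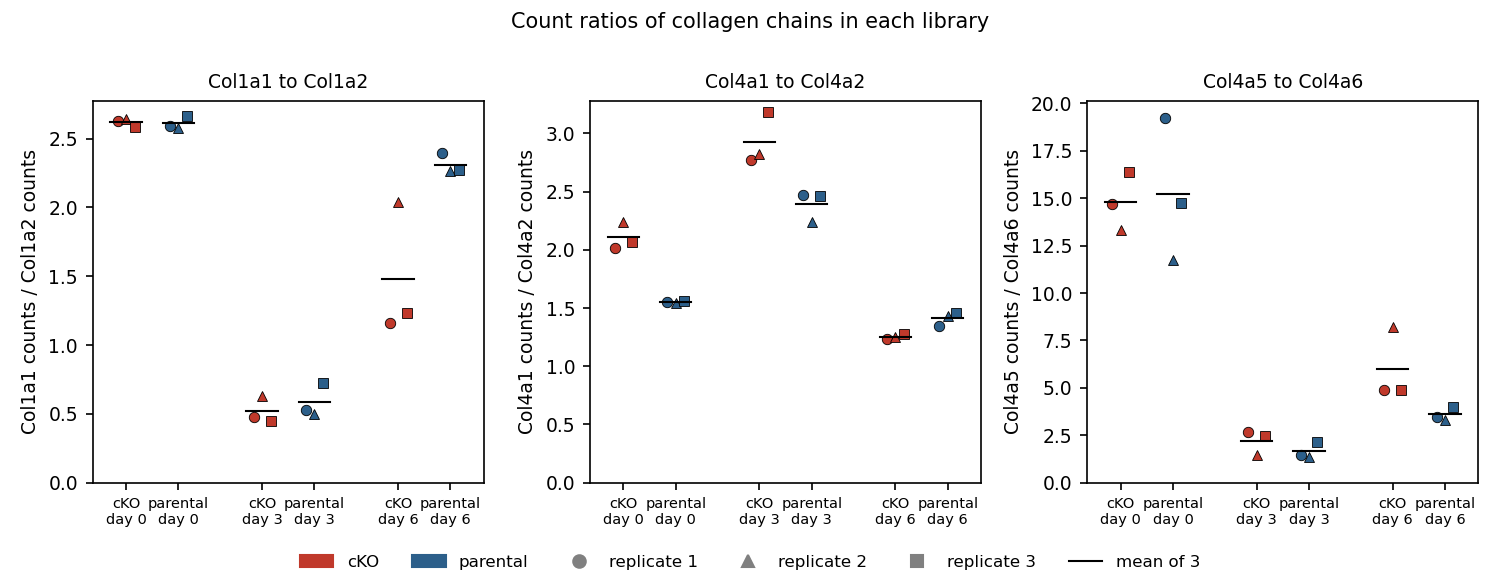
Ratio of counts of Col1a1 to Col1a2, Col4a1 to Col4a2 and Col4a5 to Col4a6 (vertical axes) in each library (horizontal axis, cKO left of parental within each day), with markers for replicates and a line at the mean of 3. The Col1a1 to Col1a2 ratio was 2.62 ± 0.0296 in cKO cells and 2.61 ± 0.0469 in parental cells at day 0, and 1.48 ± 0.490 in cKO cells and 2.31 ± 0.0763 in parental cells at day 6.

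Genes whose products fold, cross-link, bind or degrade collagen were compared next. Of 20 genes for hydroxylation, glycosylation and folding, 6 fell and 5 rose in cKO cells at day 0, 5 fell and 0 rose at day 3, and 11 rose and 2 fell at day 6. For this and the following lists the shares of all genes tested were 16.5% lower and 15.1% higher at day 0, 9.39% and 6.32% at day 3, and 25.7% and 19.9% at day 6, so several of the counts of days 0 and 3 are near those of all genes. With the second cKO library left out, the counts of higher and lower genes at day 6 were 10 and 2 here, 8 and 1 for processing and cross-linking, 9 and 0 for fibril partners, 12 and 1 for basement membrane partners, 4 and 1 for degradation and 4 and 0 for receptors. At day 0 the prolyl hydroxylase subunits P4ha1 and P4ha2 were lower, at 48.6 ± 1.499 and 17.4 ± 1.49 CPM in cKO cells and 107.5 ± 4.615 and 42.8 ± 0.407 CPM in parental cells (adjusted p = 0.000111 and 2.51e-06). At day 6 Serpinh1, the collagen chaperone HSP47, had 883, 945 and 821 CPM in cKO libraries, against 428, 477 and 443 CPM in parental libraries (0.97 ± 0.08, adjusted p = 2.65e-08). Plod2, which hydroxylates lysines of collagen, had 265 ± 1.95 CPM in cKO cells and 157 ± 4.66 CPM in parental cells (adjusted p = 7.61e-06). In neither gene did the second cKO library stand apart. At day 3 P4hb, a subunit of prolyl hydroxylase, was lower, at 326 ± 9.97 CPM in cKO cells and 477 ± 15.0 CPM in parental cells (adjusted p = 1.72e-05).

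Of 13 processing and cross-linking genes tested, 6 fell and 0 rose at day 0, 1 fell and 2 rose at day 3, and 1 fell and 9 rose at day 6. Loxl2 had 19.6 ± 1.38 CPM in cKO cells and 72.0 ± 1.66 CPM in parental cells at day 0 (-1.88 ± 0.20, adjusted p = 5.93e-06). Loxl1 was lower at day 0 (-0.90 ± 0.14, adjusted p = 7.97e-05) and higher at day 6 (1.34 ± 0.13, adjusted p = 3.7e-07). Of 11 fibril partners, 4 fell and 0 rose at day 0, 0 fell and 1 rose at day 3, and 0 fell and 7 rose at day 6. Postn, a matrix protein that binds collagen, had 13.9, 14.3 and 12.7 CPM in cKO libraries, against 38.7, 41.9 and 42.1 CPM in parental libraries at day 0 (-1.59 ± 0.17, adjusted p = 1.01e-06). At day 6 Postn had 38.5, 59.8 and 42.2 CPM in cKO libraries, against 16.1, 17.7 and 15.9 CPM in parental libraries (1.497 ± 0.16, adjusted p = 9.94e-07). Postn, which is also among the fibroblast markers, thus lay below the parental range in cKO cells at day 0 and above it at day 6.

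Of 15 basement membrane partners, 4 rose and 2 fell at day 0, 0 rose and 2 fell at day 3, and 12 rose and 1 fell at day 6, with a median log2 fold change of 1.34 at day 6. Lamc1, a chain of most laminins, had 1152, 1133 and 915 CPM in cKO libraries, against 592, 583 and 589 CPM in parental libraries at day 0 (0.86 ± 0.13, adjusted p = 0.000106). At day 6 Lamc1 had 381, 616 and 396 CPM in cKO libraries, against 199, 202 and 198 CPM in parental libraries (1.22 ± 0.13, adjusted p = 2.72e-06). Lamc1 was therefore higher in cKO cells at both days, as was Col18a1. Nid2, a linker between laminin and collagen IV, had 305 ± 2.91 CPM in cKO cells and 156 ± 0.513 CPM in parental cells at day 6 (0.97 ± 0.06, adjusted p = 5.78e-10). Of 10 degradation genes tested, 1 rose and 2 fell at day 0, 1 rose and 0 fell at day 3, and 5 rose and 1 fell at day 6. Timp3, an inhibitor of matrix proteases, had 183 ± 44.3 CPM in cKO cells and 55.0 ± 3.67 CPM in parental cells at day 6 (1.73 ± 0.12, adjusted p = 9.86e-09). Of 7 collagen receptors tested, 0 rose and 1 fell at day 0, 0 changed at day 3, and 3 rose and 0 fell at day 6. The receptor subunit Itgb1 had 1008 ± 376 CPM in cKO cells and 452 ± 11.3 CPM in parental cells at day 6 (1.16 ± 0.16, adjusted p = 4.53e-05). With the second cKO library left out, the day 6 log2 fold changes were 0.92 for Serpinh1, 0.75 for Plod2, 1.28 for Loxl1, 1.28 for Postn, 0.96 for Lamc1, 0.97 for Nid2, 1.51 for Timp3 and 0.81 for Itgb1, with adjusted p-values of at most 2.09e-05.

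The genes most like a given collagen over the 6 group means were ranked by Pearson's r of log2 CPM among 13190 genes of at least 5 CPM in a group, as a description of 6 points that share libraries. For Col1a1 they were Myo18a, Col12a1, Abca1, Mad2l2 and Akna, with r of 0.999 for the first and 0.996 for the last, and Col1a2 was at place 13. For Col3a1 they were Prrx1, Dap, Col22a1, Prdm2 and Cd248 (0.997 to 0.996), and Col5a1 was at place 8. For Col4a1 they were Nfil3, Anxa5, Col4a2, Gng12 and Rtf1 (0.997 to 0.994). For Col2a1 they were Bcorl1, Ncam1, Slit1, Jun and Vps26b (0.999 to 0.993), with Col14a1 at place 19, so no other fibrillar collagen was near it. Each of the first 3 thus had at least 1 other collagen gene within its nearest 5, and Col2a1 had none. The mean of cKO cells at day 6 includes the second library, which stood apart for these 4 genes, and no ranking was made without it.

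The 13 collagen genes under 5 CPM in every group held 46 to 659 counts each over all libraries. Besides Col13a1 and Col9a1 at day 3 and Col11a2, Col28a1 and Col6a5 at day 0, those called were Col4a4, Col9a1, Col13a1, Col15a1, Col17a1 and Col28a1, all higher in cKO cells at day 6. With the second cKO library left out the call of Col17a1 was lost (1.47, adjusted p = 0.127), the other 5 passed, and Col6a4 and Col6a5 were called higher too (1.52 and 2.61, adjusted p = 0.0222 and 0.0143). Col4a4, a chain of a specialised basement membrane collagen, had 1.34, 1.75 and 1.84 CPM in cKO libraries, against 0.169, 0.338 and 0.501 CPM in parental libraries at day 6 (2.33 ± 0.50, adjusted p = 0.00165, and 2.28, adjusted p = 0.000273, with that library left out). Col28a1 had 0.971, 0.875 and 0.992 CPM in cKO libraries, against 0.0845, 0.0676 and 0 CPM in parental libraries at day 6, so that each rested on few counts. At these levels a missing call says that no difference was detectable at this depth.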

How the data were processed

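Whole-number read counts per gene were deposited by the authors as 1 table of 18 libraries. Per the submitters' processing notes, Novoalign, DESeq2 1.10.0 and the builds mm10 and GRCm38 were used, with no step tied to each. Nothing used here states the counting tool, the annotation or the use of strand. Overlapping exons of opposite genes therefore could not be told apart, and they made up 6.07% of the exons of Col9a3.

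The deposited counts were analysed in edgeR 4.0.16 (limma 3.58.1, R 4.3.3) with TMM factors, the filterByExpr filter (20267 of 25279 genes kept), 1 robust quasi-likelihood fit with a mean for each of the 6 groups, two-sided tests and Benjamini-Hochberg adjustment over all genes tested. A gene was called at an adjusted p under 0.05. The procedure was also run on simulated counts that held no changes between days for most genes and no library that stands apart. That run therefore does not test the calls that rest on the second cKO library of day 6. CPM were counts scaled by the TMM-adjusted library size. Levels per kb used the exon length of GENCODE M21. Intervals are at 95% from the fitted standard error. Tables, ratios and figures were made with pandas 2.3.3, numpy 2.4.6 and matplotlib 3.10.9 under Python 3.11.15. Libraries were numbered within a group in accession order. Counting precision follows from 13704958 to 26995420 counts per library.

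Alternatives were factors of the DESeq2 type, total-count scaling, TMM without chromosome 11, other filters, protein-coding genes only, DESeq2 1.42.0, a fit of the compared groups alone, and each library left out in turn. Collagen genes of at least 5 CPM in a group are described with values and those of at least 20 CPM by library where a result turns on it, while of the other lists at most 4 called genes of the smallest adjusted p and at most 2 further genes by level could be named for each comparison. The lists include Lox, Sparc, Thy1 and Pdgfra, whose values by library were named after they were seen. The collagen genes and all lists were chosen with earlier results of these data known.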

Additional observations from a re-analysis of the deposited data

Results flagged for a closer look

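For 14 results on genes of at least 20 CPM the change over time differed between cKO and parental cells by a test of the difference itself (edgeR's quasi-likelihood test, Benjamini-Hochberg adjusted). From day 0 to day 3 the log2 difference of changes, cKO minus parental, was 2.05 for Col1a2, 1.91 for Col12a1, 1.84 for Col1a1, 1.30 for Col5a1 and 1.03 for Col9a2. All 5 genes fell in both genotypes over that interval, and by less in cKO cells. The call of Col9a2 was lost without any 1 of 9 libraries, with adjusted p-values of 0.0516 to 0.0997, and over this interval the number that opens the library names changes too.

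From day 3 to day 6 the difference of changes was 3.58 for Col5a2, 2.65 for Col11a1, 1.94 for Col4a2, 1.52 for Col4a5, 1.48 for Col4a1, 1.01 for Col18a1, 0.79 for Col27a1, 0.77 for Col5a1 and 0.71 for Col1a2. Without the second cKO library of day 6 the differences were 2.17 for Col5a2, 1.89 for Col11a1, 1.38 for Col4a2, 0.87 for Col4a5, 0.92 for Col4a1, 0.67 for Col18a1 and 0.96 for Col5a1, and each of these passed. The call of Col4a5 was lost without any 1 of 13 libraries (adjusted p up to 0.102), that of Col5a2 without any 1 of 8 (up to 0.0831) and that of Col27a1 without any 1 of 3 (up to 0.0608).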

How the results depend on the processing

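No paired analysis was possible because the labels give the libraries no replicate numbers. Of 7013 values of single collagen genes under the alternatives, 6804 kept their side of the threshold, 113 lost a call, 95 gained one and 1 was reversed. That was Col2a1 at day 6, at 0.24 without the second cKO library of that day, against -0.16 in the fit of all libraries and -0.44 to 0.24 over all libraries left out in turn. The cause was not tested. Leaving out each library in turn gave 1 to 2 higher and 15 to 28 lower collagen genes at day 0, 0 to 2 higher and 2 to 9 lower at day 3, and 18 to 24 higher and 3 lower at day 6. It gave 7 to 16 more positive and 1 to 3 more negative changes from day 0 to day 3, and 11 to 22 more positive and 0 to 1 more negative changes from day 3 to day 6. Among these fits, shares of all genes are given above only for the one without the second cKO library of day 6. In fits of the compared groups alone, 2 genes were higher at day 3, whereas 16.4% of all genes in that fit were higher. From day 0 to day 3 in parental cells 5 rose (8 in the fit of all libraries), whereas 45.5% of all genes in that fit rose. Of the changes from day 0 to day 3, 15 were more positive and 2 more negative, against 15.6% and 19.5% of all genes in that fit. DESeq2 called 1 gene higher at day 3 and 2 changes more negative from day 0 to day 3. TMM factors without chromosome 11 moved the median of all genes between day 0 and day 3 from 0.13 to -0.04 in cKO cells and to -0.03 in parental cells, and total-count scaling moved that between day 3 and day 6 in parental cells from 0.00 to 0.17. The collagen counts under these scalings stayed within 2 of those in the report. Genes of a few counts, among them Col4a4, Col10a1 and Col19a1 with groups at 0, are limited by depth.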
